A study of Mus musculus with 12 samples.

Results

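The genes described here are 38 members of the homologous recombination and Fanconi anemia pathways, chosen by gene symbol, with earlier results of these data known but by no rule on their values. All 38 are listed in both tables of the study, which hold 40077 genes for cells and 34508 genes for tumors. The data are bulk RNA sequencing of 12 mouse libraries, 3 in each of 4 groups. Myc-CaP cells, a line from a prostate carcinoma of an FVB mouse that carries a human MYC transgene under a prostate-specific promoter, were treated in culture with DMSO or with 1 μM YJ1206 for 24 hours. The tumors were the same line grown under the skin of male FVB mice, whose age is not given in the sources used here. Treatment of the mice was oral, with vehicle or with 100 mg/kg of YJ1206 given 3 times a week. All 4 groups thus share the MYC transgene and the parent line, and the tumors also hold host cells. YJ1206 is a proteolysis-targeting chimera (PROTAC), a molecule that brings CDK12 and CDK13 together with a ubiquitin ligase so that both kinases are degraded.

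Homologous recombination repairs a DNA double-strand break by copying the intact sister chromatid. The broken ends are first resected to single strands, the BRCA proteins and their partners then load a recombinase onto these strands, and the joined molecules are finally dissolved or cut apart. The Fanconi anemia pathway repairs crosslinks between the strands of DNA: a core complex ubiquitinates the FANCD2-FANCI pair, and the later steps draw on homologous recombination. CDK12 and CDK13 phosphorylate RNA polymerase II during elongation, and CDK12 is known for its effect on full-length transcripts of long genes, among them genes of the DNA damage response. Loss of expression of these repair genes, often called BRCAness, is known to sensitize tumors to PARP inhibitors, and prostate cancer is a tissue in which BRCA2 and ATM are recurrently mutated. Many of the members are also transcribed most in S phase.

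Levels are given as CPM, the estimated counts per 1000000 after trimmed-mean scaling of the library sizes (TMM), and as mean ± SD over the 3 libraries of a group. Levels of different genes are compared only in TPM, which the authors scaled for transcript length. Effects are log2 fold changes of YJ1206 over control from edgeR's quasi-likelihood test, fitted to all genes of a table, with their standard errors (SE) and p-values adjusted over all genes tested (Benjamini-Hochberg, threshold 0.05). The libraries held 13936902 to 18519926 counts in the cells and 15391544 to 26928365 in the tumors, so that 3 counts came to between 0.113 and 0.231 CPM. The study's methods describe its replicates in general as biologically independent, but the labels tie no library to a culture or mouse, so that p-values measure the spread between these libraries only. DMSO and YJ1206 cell libraries carry numbers from separate library series, so that batch cannot be told apart from treatment. In the tumors, library 3 of each group lay between libraries 1 and 2 in 97.2% of 1605 genes with vehicle and in 95.9% of 713 genes with YJ1206, taking genes that differed by at least 0.5 on the log2 scale between libraries 1 and 2. The corresponding shares in cells were 81.8% of 44 genes and 73.6% of 72 genes. If library 3 is not independent of the others, p-values from fits that include it are too small. Its independence was not tested. Tumor results are therefore also given with libraries 1 and 2 alone. Of 10 luminal markers, 6 were above 3 counts in some DMSO library and 7 in some YJ1206 cell library. Epcam and Cldn7 were among the others, at or under 3 counts in every cell library.

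In Myc-CaP cells, 23 of the 37 members that could be tested were lower with YJ1206 and 7 were higher, while 7 did not pass the test. The median log2 fold change of the members was -0.45, against -0.017 for all 11826 genes tested. Of all genes tested, 76.1% passed the threshold, 38.3% lower and 37.8% higher, and the count of members is to be read against these shares. The deepest decreases were those of Brca2 (-1.86), Fancd2 (-1.72), Fanca (-1.72), Eme1 (-1.70) and Fanci (-1.67). Among the increases, Rad52 (0.99) and Sfr1 (0.47) were the 2 largest. In 31 members the groups did not overlap, 23 of them lower with YJ1206, beside 77.5% of all genes with groups that did not overlap. Of all genes, 39.2% were lower and 38.4% higher without overlap. The split between lower and higher members depended on the scaling. Over all genes the median was -0.017 under TMM, -0.20 when scaled by total counts and -0.24 in the deposited TPM, and the median of the members was -0.45, -0.63 and -0.75. The higher members numbered 7 under TMM, 3 under total counts and 2 in TPM, and Rbbp8, Nbn, Exo1, Fance and Bap1 had a fitted decrease with TPM. The lower members numbered 23, 26 and 28. Of all 11826 genes, 4528, 5876 and 6151 were lower under these scalings, and 4467, 3314 and 2534 were higher.

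In Myc-CaP tumors, 27 of the 37 members tested were lower with YJ1206, 1 was higher (Swi5) and 9 did not pass the test. Their median log2 fold change was -0.50, against 0.0091 for all 15558 genes tested, of which 26.8% passed the threshold, 14.9% lower and 11.9% higher. Eme1 (-1.40), Fancd2 (-1.39), Brca2 (-1.33) and Blm (-1.23) fell furthest. In 33 members the vehicle and YJ1206 libraries did not overlap, 31 of them lower, beside 44.6% of all genes with groups that did not overlap. Of all genes, 22.8% were lower and 21.8% higher without overlap. In bulk samples, fewer cells of a type and less RNA per cell cannot be told apart. With libraries 1 and 2 of each group alone, none of the members passed the threshold in edgeR (lowest adjusted p = 0.134), beside 0.00638% of all genes, or 1 gene. In that fit 25 members were lower at an unadjusted p under 0.05, 0 were higher, and the share of all genes that were lower by this measure was 11.0%. The members' median was -0.54. The count of 28 members that changed fell to 18 without vehicle library 3, and was 19 without YJ1206 library 3. With TPM, 23 members were lower and 0 higher in tumors, beside 2394 lower and 1260 higher of all 15558 genes.

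**Figure D1:**
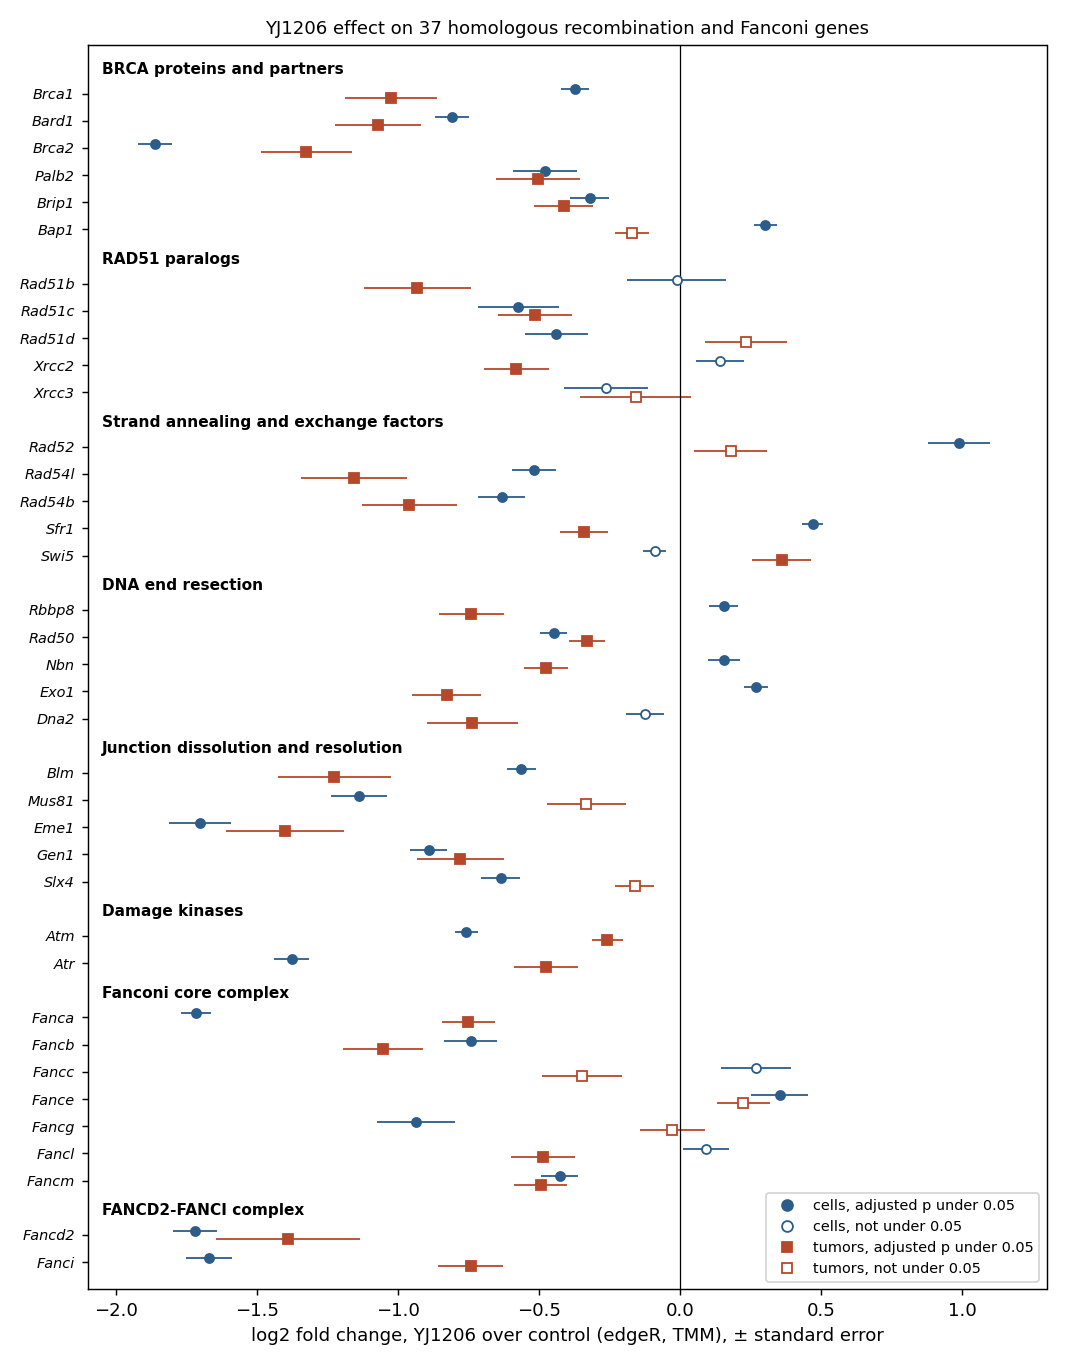
Log2 fold change of YJ1206 over control (x axis, edgeR, bars are standard errors) for the 37 members tested, grouped by role (y axis). Circles are cells and squares are tumors, filled where the adjusted p was under 0.05. In the tumors 27 members were lower and Swi5 was higher, or 23 lower and 0 higher with TPM. In cells 23 were lower and 7 higher, or 28 and 2 with TPM. Of all 11826 genes tested in cells, 4528 were lower and 4467 higher, or 6151 and 2534 with TPM. Of all 15558 tested in tumors, 2322 were lower and 1854 higher, or 2394 and 1260 with TPM.

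Of the 37 members, 19 were lower in both experiments, beside 9.0% of the 11307 genes tested in both. They were Brca1, Bard1, Brca2, Palb2 and Brip1, Rad51c, Rad54l, Rad54b, Rad50, Blm, Eme1, Gen1, both damage kinases Atm and Atr, the core complex genes Fanca, Fancb and Fancm, and both Fancd2 and Fanci. In cells alone, Rad51d, Mus81, Slx4 and Fancg passed the test as lower, and in tumors alone Rad51b, Xrcc2, Dna2 and Fancl did, of which Xrcc2, Dna2 and Fancl passed as lower in cells with TPM. Sfr1, Rbbp8, Nbn and Exo1 were higher in cells and lower in tumors, although with TPM the increase in cells held for Sfr1 alone of these 4. Bap1, Rad52 and Fance were higher in cells and did not pass the test in tumors. Swi5 passed it in tumors only, although with TPM it passed as lower in cells and did not pass in tumors. Swi5 also passed as lower in cells with total counts. Xrcc3 and Fancc passed the test in neither experiment, although Xrcc3 passed as lower in cells with total counts and with TPM. Fancf was not tested: in cells its counts were 1, 0 and 3 for DMSO, against 0, 0 and 1 for YJ1206, and 1, 5 and 0 counts with vehicle and 3, 6 and 8 with YJ1206 in tumors, so that no change was detectable at this depth.

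The upstream sequence of the 30 members with a RefSeq promoter entry was examined over the 250 bases before the RefSeq start site (GRCm38.p6). By GENCODE positions some windows lie partly inside the gene, such as those of Blm and Bard1. Others lie wholly inside it, such as those of Slx4 and Fancl. E2F factors, which switch on genes for S phase, bind cores searched here as TTCGCGC or TTGGCGC or TTCCCGC or TTGCCGC on either strand. Such a core was found in 9 members (30.0%), Bard1, Brca2, Rad51c, Rad52, Blm, Fancb, Fancf, Fancg and Fancm. The share was 9.01% of all 27025 genes with a promoter entry, whether expressed here or not. CCAAT on either strand was found in 16 members (53.3%, against 37.5%), and the CHR letters TTTGAA, an element of G2 and mitosis genes, in 1 member, Bard1 (3.33%, against 18.3%). A match of letters is a description of the window. The 8 tested members with an E2F core had a median log2 fold change of -0.66 in cells and -0.78 in tumors, and the 21 members without one -0.37 and -0.47. The upstream sequences of 4 members with an E2F core are shown because 3 of them fell in both experiments and Rad52 rose in cells. They run 5′ to 3′ along each gene's strand, with E2F cores and CCAAT letters in capitals.
Brca2 (chr5:150522371-150522620, plus strand): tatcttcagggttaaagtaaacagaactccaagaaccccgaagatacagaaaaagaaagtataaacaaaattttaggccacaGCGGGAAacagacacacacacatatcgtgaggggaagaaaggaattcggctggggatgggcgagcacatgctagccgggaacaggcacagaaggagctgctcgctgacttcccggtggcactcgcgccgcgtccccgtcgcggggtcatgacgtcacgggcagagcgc
Bard1 (chr1:71102973-71103222, minus strand): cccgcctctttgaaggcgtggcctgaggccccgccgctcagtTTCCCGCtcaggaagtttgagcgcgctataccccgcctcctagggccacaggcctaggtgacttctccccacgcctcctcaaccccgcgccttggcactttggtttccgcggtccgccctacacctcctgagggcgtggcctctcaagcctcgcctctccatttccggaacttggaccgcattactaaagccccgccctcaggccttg
Blm (chr7:80534999-80535248, minus strand): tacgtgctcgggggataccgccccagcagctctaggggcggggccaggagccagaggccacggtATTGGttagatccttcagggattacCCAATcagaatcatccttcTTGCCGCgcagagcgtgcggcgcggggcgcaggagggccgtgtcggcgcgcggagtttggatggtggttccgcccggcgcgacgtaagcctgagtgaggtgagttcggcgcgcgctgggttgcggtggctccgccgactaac
Rad52 (chr6:119902448-119902697, plus strand): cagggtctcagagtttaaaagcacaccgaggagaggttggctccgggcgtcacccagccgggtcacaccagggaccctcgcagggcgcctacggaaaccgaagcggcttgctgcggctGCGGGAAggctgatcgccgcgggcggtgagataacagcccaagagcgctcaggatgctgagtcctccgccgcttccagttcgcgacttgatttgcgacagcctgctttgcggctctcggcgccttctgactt

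The windows of Brca2, Bard1 and Rad52 each hold an E2F core of the same letters, TTCCCGC or its reverse complement GCGGGAA, and no CCAAT. Blm holds another core, TTGCCGC, together with CCAAT once on each strand. Brca2 and Rad52, with the same core on the same strand, moved in opposite directions in cells (-1.86 and 0.99). No promoter entry was used for Rad50, Rad51d, Xrcc2, Exo1, Rad54b, Nbn, Rbbp8 and Fancd2.

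Of the 6 BRCA proteins and partners, 5 fell in cells and in tumors, beside 38.3% and 14.9% of all genes. Brca2 (ENSMUSG00000041147.10, chr5:150522630-150570329, plus strand) encodes the protein that places the recombinase on resected DNA. In cells it stood at 72.1, 70.1 and 74.9 CPM in the DMSO libraries and 19.3, 19.8 and 20.7 CPM in the YJ1206 libraries. It fell 3.63-fold, the deepest decrease of any member (log2 fold change -1.86, SE 0.0593, adjusted p = 1.79e-20, edgeR). The tumor libraries held 65.3, 68.8 and 65.1 CPM with vehicle and 19.5, 31.5 and 28.4 CPM with YJ1206. The groups were far apart, a 2.51-fold decrease (log2 fold change -1.33, SE 0.162, adjusted p = 0.00226, edgeR). With libraries 1 and 2 alone the log2 fold change was -1.40 (adjusted p = 0.134, edgeR). The upstream window of Brca2 with its E2F core is shown above.

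Brca1 (ENSMUSG00000017146.12, chr11:101488764-101551955, minus strand), a ubiquitin ligase that directs end resection and recruits PALB2, had a smaller decrease in cells than in tumors with TMM scaling (difference -0.68, adjusted p = 0.00764, edgeR), which did not pass with TPM (-0.37, adjusted p = 0.269, limma). The cells gave 88.4, 84.8 and 83.6 CPM in the DMSO libraries and 63.6, 72.3 and 62.6 CPM in the YJ1206 libraries, without overlap, and a log2 fold change of -0.37 (SE 0.0492, adjusted p = 1.31e-07, edgeR). In tumors Brca1 was at 72.7, 57.0 and 61.8 CPM in the vehicle libraries and 24.5, 37.5 and 32.0 CPM in the YJ1206 libraries. This was a 2.04-fold decrease (log2 fold change -1.03, SE 0.163, adjusted p = 0.00491, edgeR), and -1.07 with libraries 1 and 2 alone (adjusted p = 0.14, edgeR). Its binding partner Bard1 fell from 52.9 ± 0.874 to 30.2 ± 2.03 CPM in cells (-0.81, adjusted p = 1.28e-12, edgeR) and from 41.7 ± 4.76 to 19.8 ± 3.68 CPM in tumors (-1.07, adjusted p = 0.00353, edgeR). Palb2, the bridge between BRCA1 and BRCA2, changed by -0.48 (adjusted p = 5.04e-04, edgeR) in cells and by -0.50 (adjusted p = 0.045, edgeR) in tumors. The tumor call of Palb2 was lost when any one of the 6 tumor libraries was left out (adjusted p = 0.0508 without vehicle library 2 to 0.149 without vehicle library 3, edgeR).

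Brip1, the BRCA1-associated helicase also known as FANCJ, changed by -0.32 (adjusted p = 1.51e-04, edgeR) in cells and -0.41 (adjusted p = 0.0267, edgeR) in tumors. Its tumor call was lost without vehicle library 1, vehicle library 3 or YJ1206 library 3 (adjusted p = 0.0511, 0.0897 and 0.0836, edgeR). The exception of the group was Bap1, a deubiquitinase that binds BRCA1. It was at 81.5, 83.0 and 79.0 CPM in the DMSO libraries and 102, 104 and 94.5 CPM in the YJ1206 libraries. All 3 treated cell libraries were higher (log2 fold change 0.30, SE 0.0421, adjusted p = 2.96e-07, edgeR), whereas with the deposited TPM the fitted value was -0.004 (adjusted p = 0.948, limma). In tumors Bap1 was at 72.4, 68.4 and 71.7 CPM in the vehicle libraries and 65.3, 60.5 and 63.3 CPM in the YJ1206 libraries (log2 fold change -0.17, SE 0.0604, adjusted p = 0.0772, edgeR), with the treated libraries below the vehicle libraries. Without vehicle library 2 the tumor value was -0.19 (adjusted p = 0.0462, edgeR).

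The 5 paralogs of the recombinase, which form 2 complexes that stabilize its filament, stood between 5.31 ± 0.992 and 17.5 ± 1.19 CPM in DMSO cells. By TPM they ran there from 5.19 (Xrcc3) to 11.7 (Xrcc2), below the median of 17.4 for the 37 tested members. Rad51c, shared by both complexes, was the one member of the group that fell in both experiments, from 7.77 ± 0.495 to 5.22 ± 0.760 CPM in cells (-0.57, adjusted p = 7.40e-04, edgeR) and from 9.49 ± 0.586 to 6.64 ± 0.766 CPM in tumors (-0.52, adjusted p = 0.0256, edgeR). The tumor call did not pass with any one library left out other than vehicle library 2 (adjusted p = 0.0555 to 0.086, edgeR). Rad51d fell in cells (-0.44, adjusted p = 8.52e-04, edgeR), and in tumors its libraries overlapped at 11.6 ± 1.99 and 13.6 ± 1.13 CPM (0.23, adjusted p = 0.275, edgeR). Without vehicle library 2 the tumor value of Rad51d was 0.39 (adjusted p = 0.0384, edgeR). Rad51b and Xrcc2 passed as lower in tumors and not in cells with TMM scaling, which for Xrcc2 turned round with TPM. Rad51b was at 5.31 ± 0.992 and 5.27 ± 1.10 CPM in cells, where its groups overlapped (-0.012, adjusted p = 0.956, edgeR), and fell from 7.58 ± 0.808 to 3.97 ± 0.909 CPM in tumors (-0.93, adjusted p = 0.0121, edgeR, and 0.0596 without YJ1206 library 3). Xrcc2 had 0.14 in cells (adjusted p = 0.132, edgeR) and fell from 15.5 ± 0.724 to 10.4 ± 1.19 CPM in tumors (-0.58, adjusted p = 0.011, edgeR, and 0.0557 without vehicle library 3). With TPM, Xrcc2 was -0.30 in cells (adjusted p = 0.0146, limma) and -0.65 in tumors (adjusted p = 0.0857, limma). Xrcc3 did not pass the test in either, at -0.26 (adjusted p = 0.111, edgeR) and -0.16 (adjusted p = 0.603, edgeR). In cells Xrcc3 passed as lower with total counts (-0.45, adjusted p = 0.00838, edgeR), with TPM (-0.45, adjusted p = 0.011, limma) and without DMSO library 1 (-0.39, adjusted p = 0.0303, edgeR).

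The strand annealing and exchange factors went both ways. Rad52 (ENSMUSG00000030166.14, chr6:119902698-119922828, plus strand), which anneals complementary single strands and serves as a backup where BRCA2 is lost, had the largest increase of any member in cells. It was at 7.18, 6.71 and 8.36 CPM in the DMSO libraries and 14.7, 14.3 and 15.3 CPM in the YJ1206 libraries, a 1.98-fold increase with no overlap (log2 fold change 0.99, SE 0.110, adjusted p = 6.30e-09, edgeR). The increase held with total counts (0.80) and with TPM (0.63). In tumors Rad52 was at 13.2, 11.3 and 13.96 CPM in the vehicle libraries and 12.7, 15.9 and 14.7 CPM in the YJ1206 libraries, and the groups overlapped (log2 fold change 0.18, SE 0.129, adjusted p = 0.343, edgeR). The motor proteins Rad54l and Rad54b, which remodel the recombination intermediate, fell in both experiments. Rad54l went from 30.4 ± 1.90 to 21.2 ± 2.09 CPM in cells (-0.52, adjusted p = 1.31e-06, edgeR) and from 20.8 ± 1.35 to 9.32 ± 2.49 CPM in tumors (-1.16, adjusted p = 0.00538, edgeR). Rad54b went from 27.6 ± 1.36 to 17.8 ± 2.13 CPM (-0.63, adjusted p = 1.36e-07, edgeR) and from 23.6 ± 1.12 to 12.1 ± 2.95 CPM (-0.96, adjusted p = 0.00687, edgeR). Of the exons of Rad54b, 35.8% lie on exons of Fsbp on the same strand, and 15.4% of those of Rad54l lie on exons of Lrrc41 on the other strand, so that reads could be split between these pairs.

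Sfr1 (ENSMUSG00000025066.10, chr19:47731682-47735588, plus strand) and Swi5 (ENSMUSG00000044627.11, chr2:32278816-32288075, minus strand) encode the 2 subunits of a complex that stimulates strand exchange, and their fitted changes had opposite signs within each experiment. Sfr1 was at 135, 140.0 and 140.0 CPM in the DMSO libraries and 192, 183 and 199.9 CPM in the YJ1206 libraries, higher in every treated library (log2 fold change 0.47, SE 0.0369, adjusted p = 5.19e-12, edgeR). The increase of Sfr1 in cells held with TPM (0.16). In tumors Sfr1 was at 100.5, 81.1 and 92.6 CPM in the vehicle libraries and 73.5, 69.4 and 73.6 CPM in the YJ1206 libraries, lower in every treated library (log2 fold change -0.34, SE 0.0859, adjusted p = 0.0249, edgeR). This tumor call was lost without vehicle library 3 or without any one YJ1206 library (adjusted p = 0.0643 to 0.0925, edgeR). For Swi5 the cells gave 128, 131 and 123 CPM in the DMSO libraries and 120.0, 126 and 113 CPM in the YJ1206 libraries (log2 fold change -0.09, SE 0.0418, adjusted p = 0.053, edgeR). These groups overlapped. The decrease passed the threshold with total counts (-0.28), with TPM (-0.42) and without DMSO library 3 or YJ1206 library 2 (-0.12 and -0.12). In tumors Swi5 was at 131, 171 and 157 CPM in the vehicle libraries and 182, 212 and 195 CPM in the YJ1206 libraries, the one member that rose there (log2 fold change 0.36, SE 0.106, adjusted p = 0.042, edgeR). Vehicle library 2 was the highest of its group, and the call was lost in the 5 fits that left out one of the other libraries (adjusted p = 0.0604 to 0.135, edgeR). The tumor call was also lost with TPM (0.30, adjusted p = 0.0604, limma). By TPM these were the most abundant members, Swi5 at 419 and Sfr1 at 161 in DMSO cells, above Exo1 at 68.0.

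All 5 genes of DNA end resection fell in tumors, and 3 of them were higher in cells with TMM scaling, though not with TPM. Of all genes, 14.9% were lower in tumors and 37.8% higher in cells with TMM scaling. Exo1 (ENSMUSG00000039748.11, chr1:175880581-175913489, plus strand), the exonuclease of long-range resection, had the largest difference between the experiments of any member. It rose in cells from 79.8, 78.9 and 77.0 CPM with DMSO to 91.1, 99.8 and 93.4 CPM with YJ1206 (log2 fold change 0.27, SE 0.0422, adjusted p = 2.05e-06, edgeR). It fell in tumors, from 39.4, 36.9 and 37.8 CPM with vehicle to 17.7, 24.4 and 22.2 CPM with YJ1206 (log2 fold change -0.83, SE 0.122, adjusted p = 0.00384, edgeR). The lowest treated cell library stood above every DMSO library, and the highest treated tumor library stood below every vehicle library. With TPM the value in cells was -0.021, so that its increase there depends on the scaling, and with libraries 1 and 2 alone the value in tumors was -0.86 (adjusted p = 0.138, edgeR). Rbbp8 (ENSMUSG00000041238.16), the partner known as CtIP that starts resection, was at 55.1, 53.8 and 53.4 CPM in the DMSO libraries and 56.5, 62.3 and 62.1 CPM in the YJ1206 libraries (log2 fold change 0.16, SE 0.0507, adjusted p = 0.00748, edgeR). The tumors gave 48.1, 36.7 and 40.1 CPM in the vehicle libraries and 24.1, 24.2 and 26.6 CPM in the YJ1206 libraries (log2 fold change -0.74, SE 0.114, adjusted p = 0.00444, edgeR), again lower in every treated library.

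The MRE11 complex, which senses and trims the broken ends, has Rad50 and Nbn as members here. Nbn (ENSMUSG00000028224.14, chr4:15957925-15992589, plus strand) was at 39.9, 40.1 and 40.5 CPM in the DMSO libraries and 44.1, 47.9 and 42.2 CPM in the YJ1206 libraries (log2 fold change 0.16, SE 0.0579, adjusted p = 0.0169, edgeR). The call in cells was lost without YJ1206 library 2 (0.11, adjusted p = 0.117, edgeR), and the direction turned with total counts (-0.03) and TPM (-0.15). The direction of Rbbp8 turned in the same way (-0.031 and -0.028). In tumors Nbn was at 32.9, 36.3 and 36.7 CPM in the vehicle libraries and 25.8, 25.2 and 25.2 CPM in the YJ1206 libraries, a decrease in every treated library (log2 fold change -0.47, SE 0.0772, adjusted p = 0.00538, edgeR). Rad50, the ATPase of the complex, fell from 86.5 ± 5.06 to 63.5 ± 1.82 CPM in cells (-0.45, adjusted p = 2.56e-09, edgeR) and from 70.5 ± 2.99 to 56.2 ± 1.96 CPM in tumors (-0.33, adjusted p = 0.00937, edgeR, and 0.051 without vehicle library 3). Dna2, a nuclease of long-range resection, was at 38.1 ± 2.78 and 35.0 ± 2.60 CPM in cells (-0.13, adjusted p = 0.0935, edgeR) and fell from 17.9 ± 2.31 to 10.7 ± 1.85 CPM in tumors (-0.74, adjusted p = 0.015, edgeR, and 0.0642 without vehicle library 3). The decrease of Dna2 in cells passed the threshold with total counts (-0.31, adjusted p = 1.70e-04, edgeR), with TPM (-0.40, adjusted p = 0.00352, limma), and without DMSO library 2 or YJ1206 library 2 (-0.18 and -0.18).

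The genes that take joined molecules apart, 1 helicase and 4 genes of nucleases, were all lower in cells, and 3 of the 5 were lower in tumors. The shares of all genes that were lower were 38.3% in cells and 14.9% in tumors. Eme1 (ENSMUSG00000039055.4, chr11:94644996-94653964, minus strand), the regulatory subunit of the MUS81 nuclease, was at 17.6, 18.3 and 18.0 CPM in the DMSO libraries and 6.01, 5.66 and 4.84 CPM in the YJ1206 libraries. This was a 3.25-fold decrease (log2 fold change -1.70, SE 0.111, adjusted p = 1.01e-13, edgeR). In tumors Eme1 was at 9.46, 10.1 and 10.8 CPM in the vehicle libraries and 2.62, 4.07 and 4.74 CPM in the YJ1206 libraries, a 2.64-fold decrease and the deepest of any member there (log2 fold change -1.40, SE 0.210, adjusted p = 0.0041, edgeR). With libraries 1 and 2 alone it was -1.54 (adjusted p = 0.134, edgeR). The catalytic subunit Mus81 fell from 19.2 ± 1.26 to 8.71 ± 0.363 CPM in cells (-1.14, adjusted p = 4.90e-11, edgeR), and in tumors its libraries were at 14.96, 13.6 and 13.6 CPM with vehicle and 9.07, 12.1 and 12.4 CPM with YJ1206 (-0.33, adjusted p = 0.121, edgeR). The treated tumor libraries of Mus81 were all below the vehicle libraries without passing the test.

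Blm (ENSMUSG00000030528.12, chr7:80454733-80535119, minus strand), the helicase that dissolves double Holliday junctions, was at 64.9, 65.6 and 68.3 CPM in the DMSO libraries and 45.6, 43.7 and 45.4 CPM in the YJ1206 libraries (log2 fold change -0.56, SE 0.0498, adjusted p = 6.76e-11, edgeR). In tumors Blm was at 54.0, 64.2 and 61.1 CPM in the vehicle libraries and 17.5, 31.6 and 27.4 CPM in the YJ1206 libraries (log2 fold change -1.23, SE 0.199, adjusted p = 0.00534, edgeR). The tumor effect minus the cell effect of Blm was -0.69 (adjusted p = 0.0159, edgeR), which did not pass with total counts (-0.47, adjusted p = 0.0783, edgeR) or TPM (-0.34, adjusted p = 0.211, limma). With libraries 1 and 2 alone the tumor value was -1.27 (adjusted p = 0.141, edgeR). YJ1206 library 1 was the lowest tumor library of Blm, as it was for Brca1, Brca2, Eme1 and Fancd2. Gen1, the resolvase that cuts Holliday junctions, fell from 62.5 ± 2.04 to 33.6 ± 4.23 CPM in cells (-0.89, adjusted p = 1.22e-12, edgeR) and from 39.4 ± 3.62 to 22.96 ± 4.58 CPM in tumors (-0.78, adjusted p = 0.0104, edgeR). Slx4, the scaffold that holds several of these nucleases, fell from 34.1 ± 1.28 to 21.9 ± 1.07 CPM in cells (-0.64, adjusted p = 4.41e-09, edgeR), and was at 43.3 ± 0.937 and 38.8 ± 1.96 CPM in tumors (-0.16, adjusted p = 0.127, edgeR).

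**Figure D2:**
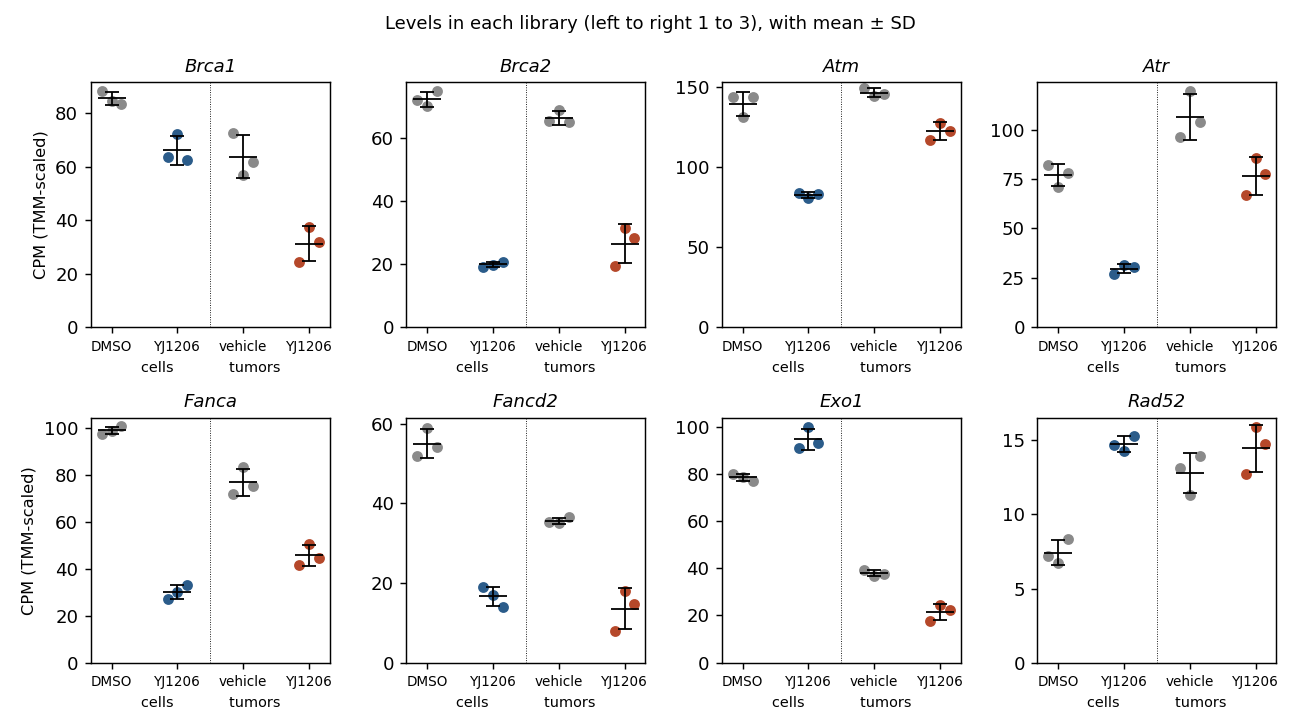
TMM-scaled CPM (y axis, from 0) of 8 members in each of the 12 libraries, by group (x axis), with bars for the mean ± SD of 3 libraries. Brca2, Fanca and Fancd2 were lower in every treated library of both experiments, Exo1 rose in cells (on this scale, not in TPM) and fell in tumors, and Rad52 rose in cells alone with 14.3 to 15.3 CPM in the treated cells against 6.71 to 8.36 with DMSO.

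Both damage kinases fell in both experiments, and by more in cells. Atr (ENSMUSG00000032409.15, chr9:95857597-95951781, plus strand), which answers stalled replication and single-stranded DNA, was at 82.0, 71.2 and 78.0 CPM in the DMSO libraries and 27.1, 31.3 and 30.7 CPM in the YJ1206 libraries. This was a 2.60-fold decrease (log2 fold change -1.38, SE 0.0621, adjusted p = 3.46e-17, edgeR). In tumors Atr was at 96.3, 119 and 104 CPM in the vehicle libraries and 66.7, 85.8 and 77.4 CPM in the YJ1206 libraries (log2 fold change -0.47, SE 0.114, adjusted p = 0.0208, edgeR). The tumor call was lost without vehicle library 3, YJ1206 library 1 or YJ1206 library 3 (adjusted p = 0.067, 0.0553 and 0.0801, edgeR). Atm (ENSMUSG00000034218.16, chr9:53439149-53536740, minus strand), which answers double-strand breaks, was at 143, 131 and 143 CPM in the DMSO libraries and 83.4, 80.5 and 83.1 CPM in the YJ1206 libraries (log2 fold change -0.76, SE 0.0425, adjusted p = 4.26e-15, edgeR). In tumors it was at 149, 144 and 146 CPM in the vehicle libraries and 117, 127 and 123 CPM in the YJ1206 libraries (log2 fold change -0.26, SE 0.0544, adjusted p = 0.0134, edgeR), and the call was lost without vehicle library 3 or YJ1206 library 3 (adjusted p = 0.0644 and 0.0693, edgeR). Treated libraries were below control libraries for both kinases in both experiments. Atm was the member with the most exons, 64, and its decrease in tumors was 1.196-fold.

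Of the 7 testable genes of the Fanconi core complex, 4 fell in cells and 4 in tumors, with Fanca, Fancb and Fancm in both sets. Beside these counts, 38.3% of all genes were lower in cells and 14.9% in tumors. Fanca (ENSMUSG00000032815.16, chr8:123268300-123318576, minus strand), a scaffold subunit of the complex, was at 97.7, 99.0 and 101 CPM in the DMSO libraries and 27.3, 30.3 and 33.1 CPM in the YJ1206 libraries. It fell 3.29-fold (log2 fold change -1.72, SE 0.0546, adjusted p = 1.77e-20, edgeR). Tumors gave 72.1, 83.5 and 75.5 CPM in the vehicle libraries and 41.7, 50.8 and 44.7 CPM in the YJ1206 libraries for Fanca (log2 fold change -0.75, SE 0.0942, adjusted p = 0.00244, edgeR), a smaller decrease without overlap, and -0.75 with libraries 1 and 2 alone (adjusted p = 0.135, edgeR). Fancb, a partner of the ligase subunit encoded on the X chromosome, fell from 30.9 ± 4.29 to 18.5 ± 2.17 CPM in cells (-0.74, adjusted p = 6.18e-08, edgeR) and from 12.3 ± 0.538 to 5.92 ± 0.944 CPM in tumors (-1.05, adjusted p = 0.00302, edgeR). Fancm, the translocase that anchors the complex on DNA, changed by -0.43 (adjusted p = 1.59e-06, edgeR) in cells and by -0.49 (adjusted p = 0.009, edgeR) in tumors. With TPM, Fancm in tumors was -0.26 (adjusted p = 0.537, limma). Fancg, a subunit that binds FANCA, fell from 8.43 ± 0.339 to 4.40 ± 0.163 CPM in cells (-0.94, adjusted p = 7.85e-07, edgeR). In tumors Fancg was at 12.9 ± 0.624 and 12.6 ± 1.39 CPM with overlapping libraries (-0.027, adjusted p = 0.887, edgeR).

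Fance, the subunit that binds FANCD2, was the core complex gene that rose in cells with TMM scaling. Its libraries were at 13.2, 15.4 and 15.01 CPM in the DMSO libraries and 21.5, 17.4 and 16.7 CPM in the YJ1206 libraries (log2 fold change 0.35, SE 0.10, adjusted p = 0.00244, edgeR), and with TPM its value was -0.045. In tumors Fance was at 13.2, 15.3 and 14.9 CPM in the vehicle libraries and 17.0, 17.1 and 16.8 CPM in the YJ1206 libraries, each treated library above each vehicle library without passing the test (log2 fold change 0.22, SE 0.0944, adjusted p = 0.12, edgeR). Fancl, the ubiquitin ligase subunit, was at 25.4 ± 2.37 and 27.1 ± 2.97 CPM in cells (0.092, adjusted p = 0.316, edgeR) and fell from 16.4 ± 1.07 to 11.7 ± 1.16 CPM in tumors (-0.49, adjusted p = 0.0182, edgeR, and 0.0726 without YJ1206 library 3). With TPM the value of Fancl in cells was -0.30 (adjusted p = 0.0466, limma). Fancc, which bridges subunits of the complex, did not pass the test in cells (0.27, adjusted p = 0.0507, edgeR) or in tumors (-0.35, adjusted p = 0.111, edgeR). Without YJ1206 library 1 its value in cells was 0.37 (adjusted p = 0.0142, edgeR). Over 10% of the exons of Fanca, Fancc, Fancl and Fanci lie on exons of a gene on the other strand, and the sources used here do not say that strand was used in counting.

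Both genes of the FANCD2-FANCI pair, which is clamped on DNA once ubiquitinated, fell in both experiments. Fancd2 (ENSMUSG00000034023.16, chr6:113531682-113597017, plus strand) was at 51.8, 58.9 and 54.1 CPM in the DMSO libraries and 18.9, 17.0 and 14 CPM in the YJ1206 libraries. The decrease was 3.29-fold (log2 fold change -1.72, SE 0.0788, adjusted p = 4.83e-17, edgeR). In tumors Fancd2 was at 35.4, 35.1 and 36.5 CPM in the vehicle libraries and 7.92, 17.9 and 14.8 CPM in the YJ1206 libraries (log2 fold change -1.39, SE 0.256, adjusted p = 0.00812, edgeR). Its treated tumor libraries were widely spread, with YJ1206 library 1 lowest, and all lay below the vehicle libraries, which were close together. With libraries 1 and 2 alone the log2 fold change was -1.44 (adjusted p = 0.153, edgeR). Fanci (ENSMUSG00000039187.16, chr7:79391929-79450264, plus strand) fell in cells from 33.7 ± 0.511 to 10.6 ± 0.704 CPM (log2 fold change -1.67, SE 0.0814, adjusted p = 1.90e-16, edgeR) and in tumors from 24.4 ± 3.06 to 14.6 ± 0.821 CPM (log2 fold change -0.74, SE 0.115, adjusted p = 0.00455, edgeR).

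The decrease of Fanci in tumors was present in counts and not in TPM. Its TPM was 34.4 with vehicle and 33.8 with YJ1206, a value of -0.04 in log2(TPM + 1) units (adjusted p = 0.865, limma). The ratio of count to TPM gives the length that the deposited files imply for a gene's transcripts in a library, here relative to the median gene of that library. On the log2 scale this implied length fell by 0.76 for Fanci in tumors, with every YJ1206 library below every vehicle library, and 14 of 13276 genes had a larger change. In cells the value for Fanci was -0.33, with overlapping libraries. Among the other members in tumors, Fancc had -0.39 and Gen1 0.26, without overlap. Fancm had -0.27 with overlapping libraries, and 0.057 without vehicle library 3. In tumors 7 of 37 members moved by over 0.1, beside 12.1% of all genes, and in cells 11 of 37, beside 20.3%. The measure was added after the data had been seen, and is a description without a test.

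Cells and tumors differed in their response to YJ1206 for 24 of the 37 members (adjusted p under 0.05 for the interaction term over all 12 libraries, edgeR), beside 46.8% of all 15423 genes tested. Values here are the tumor effect minus the cell effect, so that a negative value means a lower tumor effect. Beside 26.0% of all genes, it was negative for 14 members. Exo1 had -1.12 (SE 0.127, adjusted p = 9.05e-06, edgeR), Rad51b -0.95 (SE 0.296, adjusted p = 0.0179, edgeR), Rbbp8 -0.93 (SE 0.130, adjusted p = 5.81e-05, edgeR) and Sfr1 -0.84 (SE 0.0993, adjusted p = 1.33e-05, edgeR). Brca1 was also among them, with -0.68 (SE 0.183, adjusted p = 0.00764, edgeR, and 0.269 with TPM, limma). Beside 20.8% of all genes, the difference was positive for 10 members. These included Fanca, with 0.93 (SE 0.120, adjusted p = 2.77e-05, edgeR), Fanci, with 0.90 (SE 0.137, adjusted p = 1.19e-04, edgeR), Atr, with 0.87 (SE 0.145, adjusted p = 2.49e-04, edgeR), and Fancg, with 0.88 (SE 0.164, adjusted p = 6.16e-04, edgeR). For Brca2 the difference was 0.51 (SE 0.181, adjusted p = 0.0343, edgeR), and it was lost in 9 of the 12 fits that left out one library (adjusted p up to 0.0987 without YJ1206 tumor library 2, edgeR). The differences of Rad51b and Rad54l were lost without YJ1206 cell library 2 and without DMSO library 3 or YJ1206 cell library 1, respectively (adjusted p = 0.0545, 0.0504 and 0.0565, edgeR). With both total counts and TPM the differences of Rad51b, Rad54l, Dna2, Blm, Fancc and Fancl did not pass, and with TPM those of Brca1 and Xrcc2 did not either. For Rad54l the values were -0.44 (adjusted p = 0.101, edgeR) and -0.34 (adjusted p = 0.192, limma). For Fancd2 and Eme1, which fell deeply in both, the test did not pass, with 0.31 (SE 0.288, adjusted p = 0.417, edgeR) and 0.28 (SE 0.241, adjusted p = 0.378, edgeR). Across the 37 members the effects in cells and tumors had a Pearson correlation of 0.50 and a Spearman correlation of 0.44, as a description across genes that share the libraries. This fit uses a single estimate of spread for materials whose biological coefficients of variation were 0.032 and 0.14. Dose, duration, route and library series differ between the experiments as well.

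**Figure D3:**
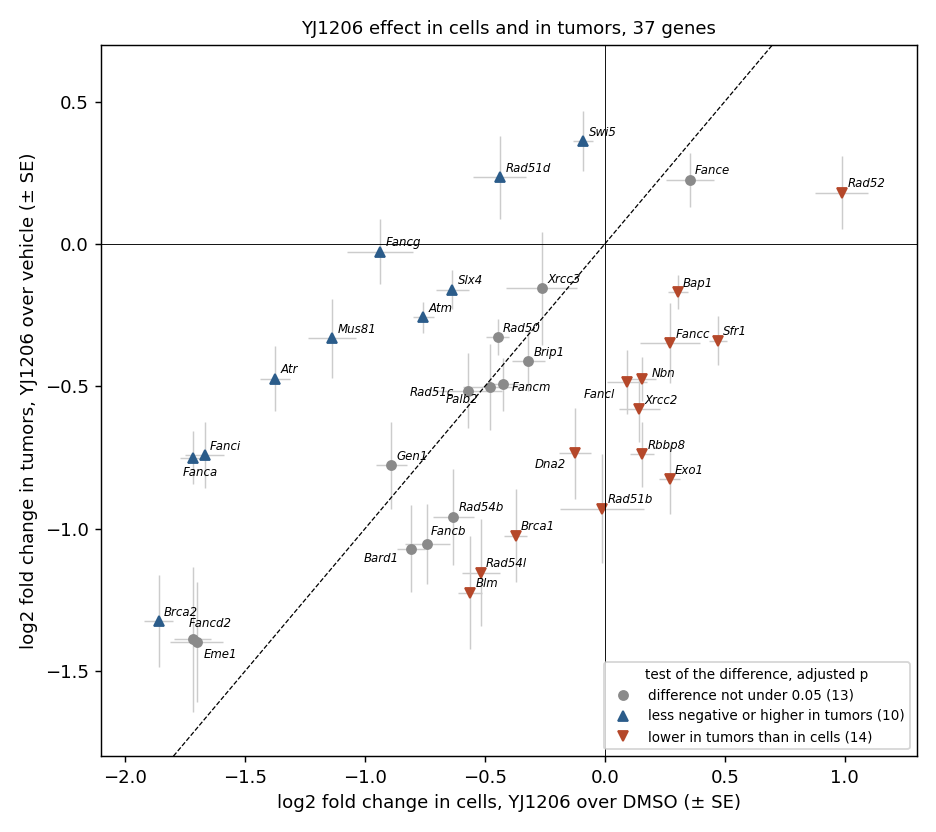
Log2 fold change of YJ1206 over control in cells (x axis) and in tumors (y axis) for the 37 members tested, with standard errors; the dashed line marks equal effects. Triangles mark the 24 members whose effects differed, 14 lower and 10 higher in tumors than in cells. Of all genes tested for the difference, 26.0% were lower and 20.8% higher.

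Since CDK12 and CDK13 act in transcription elongation, the effects were set beside gene structure, taken for each gene from its principal transcript in GENCODE vM21. The 5 members with at least 30 exons, Fanca, Fanci, Fancd2, Atr and Atm, were lower in both experiments, with a median log2 fold change of -1.67 in cells and -0.74 in tumors. Of these, Fanci did not pass in tumors with TPM (-0.04, adjusted p = 0.865, limma). The tumor calls of Atr and Atm were lost in some fits that left out 1 library, as given above. Of all genes with at least 30 exons that were tested, 56.5% of 515 were lower in cells and 22.0% of 690 in tumors. The 16 members with 15 to 29 exons had medians of -0.40 in cells and -0.61 in tumors, and 10 and 12 of them were lower, beside 45.1% and 19.9% of all genes in that range. Among the 16 members with fewer than 15 exons, 8 were lower and 3 higher in cells (median -0.35), and 10 were lower and 1 higher in tumors (median -0.49), beside 35.4% and 13.3% of all such genes that were lower. Across the 37 members, Spearman's rho of the effect in cells was -0.39 with exon number, -0.43 with transcript length and -0.09 with the span of the gene. For all genes tested in cells these were -0.05, -0.13 and -0.05. In tumors rho over the members was -0.23, -0.33 and -0.37, against -0.08, -0.02 and -0.04 for all genes. These are descriptions across genes that share the libraries. Eme1, with 9 exons over a span of 8969 bases, fell as far as Fanca and Fancd2 in cells, which have 43 and 44 exons.

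**Figure D4:**
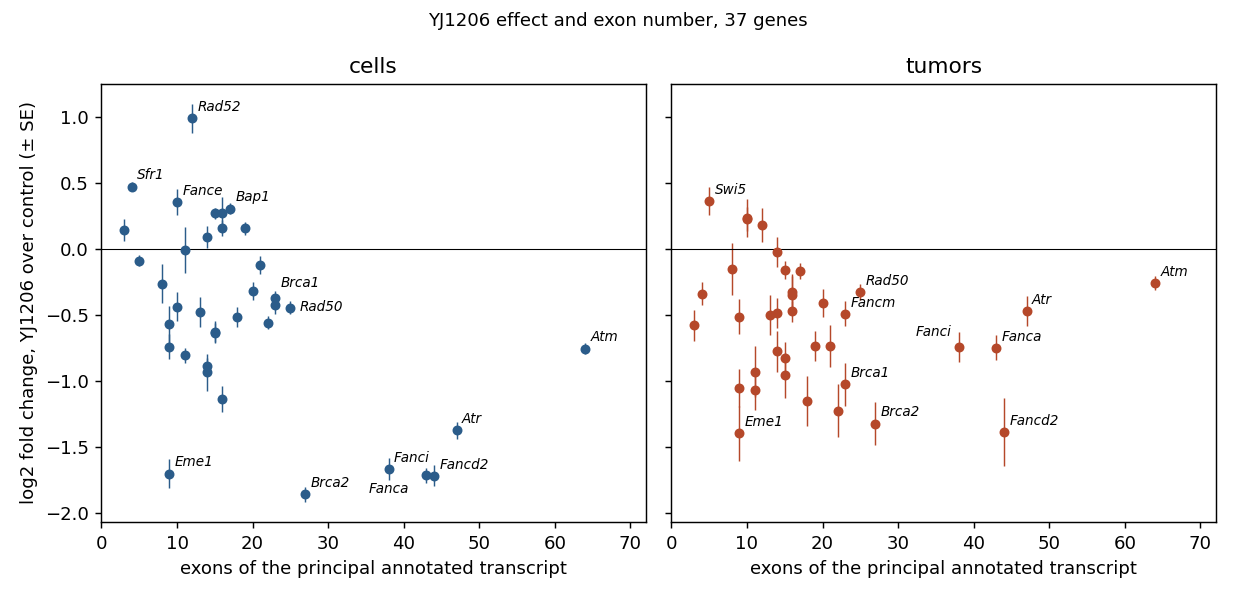
Log2 fold change of YJ1206 over control (y axis, bars are standard errors) against the number of exons of the principal transcript (x axis) for the 37 members, in cells on the left and in tumors on the right. The 5 members with at least 30 exons were all lower in both, with medians of -1.67 and -0.74, and Eme1 with 9 exons was as low. With TPM, Fanci did not pass in tumors (-0.04, adjusted p = 0.865, limma).

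Other genes of the pathway were read from a list of 70 symbols, of which 65 are in the tables. Of 63 tested in cells, 31 were lower and 19 higher (median log2 fold change -0.13), and of 64 tested in tumors, 32 were lower and 1 was higher (median -0.32), beside the shares of all genes given above. The 3 deepest decreases in cells were Parpbp, an inhibitor of recombination, at -1.50 (adjusted p = 3.63e-15, edgeR), Mdc1, which reads phosphorylated histone at breaks, at -1.44 (adjusted p = 3.21e-20, edgeR), and Abraxas1, of the BRCA1-A complex, at -1.32 (adjusted p = 4.34e-13, edgeR). The 3 largest increases there were Sem1, a small partner of BRCA2 and of the proteasome, at 1.11 (adjusted p = 5.26e-20, edgeR), Zswim7 at 0.80 (adjusted p = 5.52e-06, edgeR) and the nuclease subunit Ercc1 at 0.59 (adjusted p = 1.08e-07, edgeR). Ercc1 went the other way in tumors, at -0.43 (adjusted p = 0.0227, edgeR). In tumors Parpbp at -1.78 (adjusted p = 0.00167, edgeR), Polq, the polymerase of theta-mediated end joining, at -1.45 (adjusted p = 0.00263, edgeR), and Hrob at -1.39 (adjusted p = 0.00458, edgeR) fell furthest. Sem1 was the one that rose, at 0.17 (adjusted p = 0.0356, edgeR). In cells Hrob had -0.11 (adjusted p = 0.276, edgeR), and it passed as lower there with total counts (-0.30, adjusted p = 0.00461, edgeR) and TPM (-0.38, adjusted p = 0.00458, limma). The split in cells moved with the scaling, to 39 lower and 9 higher with total counts and 39 lower and 5 higher with TPM. Of all 11826 genes, 5876 were lower and 3314 higher with total counts, and 6151 and 2534 with TPM. The increases of Sem1 and Zswim7 in cells held with TPM (0.79 and 0.44), while that of Ercc1 did not pass there (0.18, adjusted p = 0.105, limma), nor did that of Sem1 in tumors (0.096, adjusted p = 0.203, limma). With tumor libraries 1 and 2 alone none of the other repair genes passed in edgeR, and 28 were lower at an unadjusted p under 0.05. Of all genes, 11.0% were lower by this measure.

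Genes of the cell cycle stand beside these values because many members are transcribed in S phase. In cells, 14 of 25 S phase genes were lower and 6 higher (median -0.17), and of 25 genes of G2 and mitosis 9 were lower and 11 higher (median 0.060). Of all genes tested in cells, 38.3% were lower and 37.8% higher. In tumors, 22 of the S phase genes were lower and 0 higher (median -0.99), and all 25 genes of G2 and mitosis were lower (median -1.61). Of all genes tested in tumors, 14.9% were lower and 11.9% higher. With total counts the S phase genes in cells were 18 lower and 5 higher and those of G2 and mitosis 15 lower and 6 higher, and with TPM 20 and 3, and 19 and 5. Over all 11826 genes the counts were 5876 lower and 3314 higher with total counts, and 6151 and 2534 with TPM. With tumor libraries 1 and 2 alone no gene of either list passed in edgeR, and 23 S phase genes and all 25 of G2 and mitosis were lower at an unadjusted p under 0.05. Of all genes, 11.0% were lower by this measure. The members' medians were -0.45 in cells and -0.50 in tumors, so that they lay below the cell cycle lists in cells and above them in tumors. The summed TPM of the members was 1270 ± 6.79 with DMSO and 942 ± 32.2 with YJ1206 in cells, and 1110 ± 35.0 with vehicle and 1007 ± 50.8 with YJ1206 in tumors. Swi5 alone held 438 and 537 TPM of the tumor sums, and without it they were 672 ± 16.8 and 469.6 ± 18.5, while those in cells were 851 ± 7.14 and 629 ± 10.7. For the S phase genes the sums were 3636 ± 11.9 and 3000 ± 39.9 in cells and 1439 ± 60.2 and 645 ± 111 in tumors. For G2 and mitosis they were 3733 ± 17.0 and 3217 ± 22.9 in cells, and 1761 ± 64.8 and 559 ± 219 in tumors. YJ1206 tumor library 1 had the lowest sum of all 3 lists among the treated tumors. The part of cell division in the members' decrease was not tested.

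**Figure D5:**
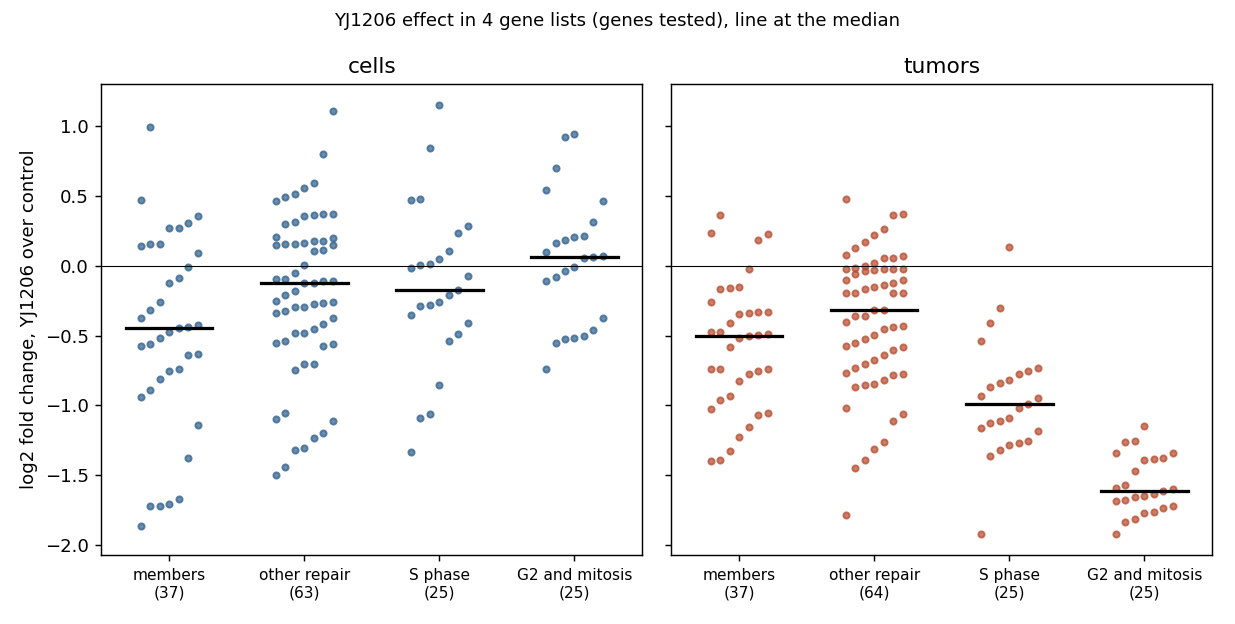
Log2 fold change of YJ1206 over control (y axis) for each gene tested in 4 lists (x axis, number of genes tested in parentheses), in cells on the left and in tumors on the right, with a line at each median. The members' median lay at -0.45 in cells and -0.50 in tumors, while that of the G2 and mitosis genes went from 0.060 in cells (-0.24 with TPM) to -1.61 in tumors.

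The cell type make-up of the tumors was read from summed TPM of marker lists, and among the lists given here the groups did not overlap for the leukocyte, neutrophil, endothelial and skeletal muscle lists. All 6 leukocyte markers were above 3 counts, with a sum of 153 to 362 with vehicle and 419 to 451 with YJ1206. The sums of the 7 macrophage markers were 182 to 254 and 248 to 332, and those of the 5 neutrophil markers 21.0 to 28.1 and 11.8 to 17.4. The 7 fibroblast markers summed to 226 to 735 and 165 to 364, and the 6 endothelial markers to 51.3 to 52.9 and 55.1 to 61.8. The 6 skeletal muscle markers summed to 30.0 to 767 with vehicle and 11.8 to 13.7 with YJ1206. T cell sums were 9.24 to 12.4 and 9.65 to 11.4, and B cell sums were at most 1.39. In cells, leukocyte markers summed to at most 0.516. The T cell markers summed there to 3.72 to 5.9 with DMSO and 1.59 to 1.90 with YJ1206. Those of skeletal muscle summed to 7.75 to 12.1 with DMSO and 8.12 to 10.9 with YJ1206. Sums of that size thus occur without host cells. The part of the marker shifts between tumor groups in the tumor values of the members was not tested.

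By TPM, the 37 tested members ranged in DMSO cells from 5.19 (Xrcc3) to 419 (Swi5), with a median of 17.4, and the median was 9.86 in treated cells. In tumors the medians were 15.2 with vehicle and 9.27 with YJ1206. In DMSO cells the order at the top was Swi5, Sfr1, Exo1, Bap1, Fanca and Rbbp8, at 419 ± 10.7, 161 ± 3.89, 68.0 ± 1.24, 41.3 ± 0.814, 39.5 ± 0.912 and 35.8 ± 1.93 TPM. From Rad50 at 28.9 ± 1.45 to Slx4 at 26.5 ± 1.55, the mean ± SD ranges of neighbours in the order overlapped. So did those of the 5 lowest, from Fancg at 5.47 ± 0.219 to Xrcc3 at 5.19 ± 0.917. Fanca, the fifth in DMSO cells, stood at 9.86 TPM in treated cells, and Brca2 went from 11.4 to 2.71 TPM.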

How the data were processed

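RNA was sequenced from Myc-CaP cells and Myc-CaP tumors, with 3 libraries in each of 4 groups, and all 12 were assigned from their labels. Per the labels' processing notes, the submitters used kallisto with GRCm38 and mm10. The kallisto version and the annotation release are not given in the sources used here. The authors deposited estimated counts per gene, not scaled between libraries, and TPM values, scaled for transcript length to a sum of 1000000. The paper's methods describe ribosomal RNA depletion, whereas the cell labels name polyA RNA.

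The estimated counts were rounded, filtered (filterByExpr), TMM-scaled and fitted with edgeR 4.0.16 in R 4.3.3 (glmQLFit, glmQLFTest), for cells and tumors separately, with Benjamini-Hochberg adjustment over all genes. The test had been planned for counts, and rounding is the change that estimated counts required. The difference of effects was the interaction term over 12 libraries, with genes matched by Ensembl number. Alternatives were DESeq2 1.42.0, other size factors, total counts, no filter, limma 3.58.1 on log2(TPM + 1) and log2(TPM + 0.1), a replicate block, each library left out and libraries 1 and 2 of each tumor group alone. The fits were tested on simulated counts. Within each group, chi-square values compared the libraries (1.94 to 2.90 per gene in cells, 3.66 to 49.7 in tumors), and no 2 agreed within sampling noise. They cannot tell whether tumor library 3 is independent of libraries 1 and 2. Each library was kept as a sample.

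Positions, transcripts and exons are from GENCODE vM21, in which 37 of the 38 members had the same identifier version, and promoters from RefSeq (GRCm38.p6). Same-numbered libraries did not deviate together (correlations between -0.029 and 0.010), so the numbers were not used as pairs. The members and all lists were chosen with earlier results of these data known. All 38 members are named. Values per library are given for Brca1, Brca2, Atm, Atr, Fancd2 and Fanca, for the members that passed the threshold and ranked among the 4 highest or 4 lowest in an experiment, for members called in opposite directions, and for members with no more than 3 counts in every library of a group. Of the other repair genes, the 3 largest changes each way are given. The limit of 3 counts covers counting error only. The summed level of the luminal markers is not reported here.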

Additional observations from a re-analysis of the deposited data

Results flagged for a closer look

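For 24 of the 37 members tested, the effect of YJ1206 in tumors differed from that in cells by the interaction term over all 12 libraries (edgeR, adjusted p under 0.05), beside 46.8% of all genes tested. Groups of 3 libraries were not examined for single outlying samples. Values below are the tumor effect minus the cell effect on the log2 scale. With total counts 19 members differed and with log2(TPM + 1) 18, with the calls of Brca1, Rad51b, Xrcc2, Rad54l, Dna2, Blm, Fancc and Fancl lost in TPM.

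Beside 26.0% of all genes, the difference was negative for 14 members. Among the BRCA partners and paralogs these were Brca1 at -0.68 (adjusted p = 0.00764, edgeR), Bap1 at -0.50 (adjusted p = 6.68e-05, edgeR), Rad51b at -0.95 and Xrcc2 at -0.75, and among the annealing and exchange factors Rad52 at -0.84, Rad54l at -0.66 and Sfr1 at -0.84. End resection gave Exo1 at -1.12 (adjusted p = 9.05e-06, edgeR), Rbbp8 at -0.93, Nbn at -0.66 (adjusted p = 4.96e-05, edgeR) and Dna2 at -0.64. The remaining members were the helicase Blm at -0.69 and the core complex genes Fancc at -0.65 and Fancl at -0.61.

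Beside 20.8% of all genes, it was positive for 10 members. Brca2 had 0.51 (adjusted p = 0.0343, edgeR), Rad51d 0.64 and Swi5 0.42, while the nuclease genes Mus81 and Slx4 had 0.78 and 0.44. The kinases Atm and Atr had 0.47 and 0.87, and the Fanconi genes Fanca, Fancg and Fanci had 0.93, 0.88 and 0.90.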

How the results depend on the processing

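DESeq2 kept the direction and the side of the threshold in all 98 results compared. With total counts, 3 members were higher in cells and the members' median was -0.63, and with log2(TPM + 1) and log2(TPM + 0.1) 2 were higher, with medians of -0.75 and -0.82. The counts and medians of all genes with total counts and log2(TPM + 1) are given above. No member was higher in tumors with either TPM scale. With libraries 1 and 2 of each tumor group alone, 0 members changed, 0 were lower and 0 were higher in edgeR, with 2 libraries a group, and 25 were lower and 0 higher at an unadjusted p under 0.05. With one library left out at a time, 30 to 31 members changed in cells (23 to 25 lower and 6 to 8 higher, median -0.51 to -0.42), 18 to 29 in tumors (18 to 27 lower and 0 to 2 higher, median -0.57 to -0.50), and 22 to 26 differed between the experiments. The fewest in tumors, 18, came without vehicle library 3.

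Directions that turned in cells did so mostly with the scaling. With total counts these were Xrcc2 (-0.044), Rbbp8 (-0.031), Nbn (-0.030) and Fancl (-0.094), and with the 2 TPM scales, the second value for the pseudocount of 0.1, Bap1 (-0.0040 and -0.0041), Xrcc2 (-0.30 and -0.33), Rbbp8 (-0.028 and -0.029), Nbn (-0.15 and -0.15), Exo1 (-0.021 and -0.021), Fancc (-0.064 and -0.077), Fance (-0.045 and -0.047) and Fancl (-0.30 and -0.31). The difference of Fancc became 0.058 and 0.068 with TPM. Values near 0 turned with single libraries. Rad51b in cells ran from -0.17 to 0.15, with 0.15 without DMSO library 3, 0.012 without YJ1206 library 1 and 0.12 without YJ1206 library 3, Xrcc3 in tumors 0.022 without YJ1206 library 1, and Fancg in tumors ran from -0.11 to 0.049, with 0.0085 without vehicle library 1, 0.049 without YJ1206 library 3 and 0.019 with libraries 1 and 2 alone. The causes were not tested.

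Library numbers were not treated as pairs. With the replicate block, 31 members changed in cells (24 lower and 7 higher, median -0.45), 28 in tumors (27 lower and 1 higher, median -0.52) and 25 differed between the experiments. The block added Swi5 in cells (-0.091, adjusted p = 0.0392, edgeR) and changed no other call of a member within an experiment.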

Other observations

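Some partners of the members in the same complexes are given here, chosen after their values were seen, with no test of the complexes as groups. In the BRCA1-A complex, which binds BRCA1 at ubiquitinated chromatin, Abraxas1 changed by -1.32 in cells (adjusted p = 4.34e-13, edgeR) and by -0.11 in tumors (adjusted p = 0.586, edgeR), and Babam1 by -1.10 and -0.58, passing in both. Brcc3 of the same complex changed by -0.58 and -0.32, passing in both, but was -0.15 in tumors with TPM (adjusted p = 0.349, limma). Uimc1 had -0.11 and -0.041, passing in neither, but passed as lower in cells with total counts (-0.30) and with TPM (-0.21). Babam2, another subunit, had 0.16 in cells with TMM scaling and -0.18 with TPM, each past the threshold. Usp1, which removes ubiquitin from FANCD2, rose by 0.51 in cells (adjusted p = 1.66e-15, edgeR), and by 0.21 with TPM, and fell in tumors (-1.02, adjusted p = 9.21e-04, edgeR). Faap24, the partner of FANCM, fell in both (-1.20 and -1.31). Of the partners of BLM, Top3a rose in cells (0.46, and 0.25 with TPM), with 0.078 in tumors (adjusted p = 0.79, edgeR), Rmi1 had 0.17 in cells with TMM scaling and -0.22 with TPM, each past the threshold, and -0.023 in tumors (adjusted p = 0.872, edgeR), and Rmi2 fell in cells (-0.54), with -0.19 in tumors (adjusted p = 0.125, edgeR).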
